A study of Mus musculus with 6 samples.

Results

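The respiratory chain of the inner mitochondrial membrane passes electrons from NADH and succinate to oxygen through complexes I to IV, and complex V uses the resulting proton gradient to make ATP. Most of its subunits are encoded in the nucleus, and the remainder on mitochondrial DNA. The kidney relies on this pathway because the reabsorption of salt and solutes along the tubule, above all in the proximal tubule and the thick ascending limb, is driven by ATP. The nuclear-encoded subunit genes were taken from the gene table by symbol: Ndufa, Ndufb, Ndufc, Ndufs and Ndufv without the Ndufaf assembly factors, the Sdh subunits, Cyc1 and Uqcr, Cox4i to Cox8, and Atp5. This gave 87 of the 17684 genes listed, of which 39 belong to complex I, 4 to complex II, 9 to complex III, 18 to complex IV and 17 to complex V. Ndufa4 was counted in complex IV, where its protein is found, and Ndufa4l2 was left in complex I by its symbol. The table listed 0 subunit genes of mitochondrial DNA, so that part of the chain was not analysed here.

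RNA-seq of kidneys was used to compare libraries of db/db mice of the Db group (n = 3) with those of the Db + Ato10 group (n = 3), to see how long-term atorvastatin, an inhibitor of HMG-CoA reductase, affects the diabetic kidney. In the db/db mouse the leptin receptor is defective, which leads to obesity and type 2 diabetes. All mice carried the strain label C57 BLKS/L and were 50 weeks old. The Db group had received normal saline for 40 weeks, and the Db + Ato10 group atorvastatin at 10 mg/kg/day for 40 weeks, given by oral gavage. A single field of the sample records names atorvastatin for all 6 libraries, and the groups used here follow the field that separates saline from atorvastatin. No source states that each library came from its own mouse, so p-values measure the spread between these samples.

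Library totals were 13134930, 11381678 and 12426051 counts in Db replicates 1 to 3, and 14578023, 14667909 and 13133241 counts in Db + Ato10 replicates 1 to 3. Some libraries stood apart. Along the first principal component of log2 CPM (counts scaled to library size and edgeR's TMM factors, which correct for composition), which held 71.1% of the variance, the Db libraries lay at -55.4, -26.9 and -52.0 and the Db + Ato10 libraries at 107, 46.1 and -18.8. Thus Db + Ato10 replicate 3 lay next to the Db libraries. Db replicate 1 held 2 counts over 4 Y-linked genes against 1419 to 2116 in each of the other libraries, although the study used male mice. Results are therefore given with and without these libraries. The kidney label was borne out by markers such as Slc34a1, the phosphate transporter of the proximal tubule, at 3047, 2388 and 2811 TPM (a level scaled to transcript length and library) in the Db libraries.

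The subunits held 3.06% to 3.13% of the counts in the Db libraries, and a smaller part in the Db + Ato10 libraries, above all in replicates 1 and 2. Summed over the 87 genes, the level was 80265, 80482 and 81076 TPM in the Db libraries and 53815, 55302 and 76985 TPM in the Db + Ato10 libraries. Thus 2 treated libraries were far below the Db range of the summed TPM and the remaining treated library was slightly below it. The means were 80607 ± 420 TPM (SD, n = 3) in the Db group and 62034 ± 12969 TPM (SD, n = 3) in the Db + Ato10 group, or 77.0% of the Db mean. By library, the treated values were 66.8%, 68.6% and 95.5% of the Db mean of the summed TPM. The exact two-sided permutation test gave p = 0.1, the smallest value that 3 against 3 libraries allow. On summed CPM, after TMM scaling, the treated mean was 77.9% of Db and the groups overlapped (exact permutation p = 0.2). As a plain share of library counts, without TMM factors, the subunits held 3.06%, 3.06% and 3.13% in the Db libraries and 2.23%, 2.07% and 2.99% in the Db + Ato10 libraries, without overlap. Without Db + Ato10 replicate 3 the summed TPM was 67.7% of Db, and without Db replicate 1 it was 76.8%. In bulk kidney, fewer cells rich in mitochondria and less subunit RNA per cell cannot be told apart.

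Every complex showed the same order of libraries in the treated group on summed TPM, with replicate 1 lowest and replicate 3 highest. Complex I stood at 78.1% of the Db mean, complex III at 77.7%, complex IV at 78.4% and complex V at 75.0%, each with exact permutation p = 0.1. Complex II, succinate dehydrogenase, stood at 68.9%, and its groups overlapped (exact permutation p = 0.2). Its summed TPM was 2697, 2357 and 2578 in the Db libraries and 1196, 1615 and 2446 in the Db + Ato10 libraries. On the median deviation of log2 CPM from the Db mean, the picture differed. Db + Ato10 replicate 3 was at 0.044, 0.046, 0.003, 0.019 and 0.032 in complexes I to V. On that scale replicate 2 was the lowest in each complex but II, where replicate 1 was. Differences between the complexes were not tested.

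**Figure D1:**
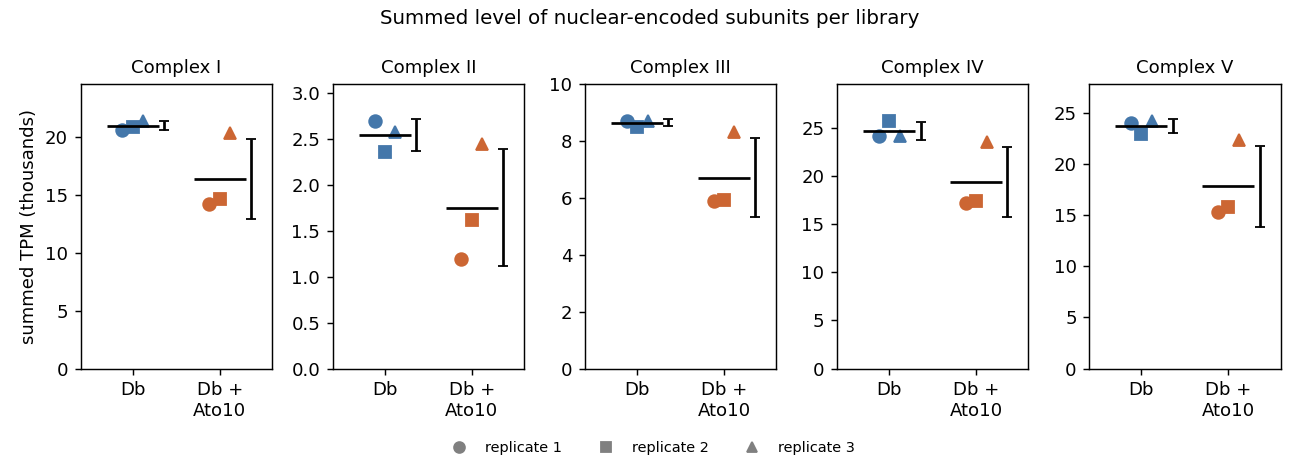
Summed TPM of the nuclear-encoded subunits of each complex (in units of 1000 TPM, axis from 0) in every library, with replicates 1 to 3 drawn as circle, square and triangle, the group mean as a horizontal line and its SD as a bar. Db + Ato10 replicates 1 and 2 lie well below the 3 Db libraries in each complex, and Db + Ato10 replicate 3 lies at 94.1% to 97.0% of the Db mean.

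Gene by gene, the shift was small, and most log2 fold changes were below 0. Of the 87 genes, 84 were tested because 3 or more libraries held 10 or more counts. Ndufb4b, Cox7b2 and Cox8b were below that minimum. The log2 fold change (Db + Ato10 over Db) was below 0 for 79 of the 84 and above 0 for 5, while 50.6% of all 13679 tested genes were below 0. The median log2 fold change was -0.28 over the subunits and -0.006 over all tested genes. By complex the median was -0.28 for I, -0.40 for II, -0.29 for III, -0.25 for IV and -0.25 for V. The median deviation of the subunits' log2 CPM from the Db mean was -0.40 and -0.52 in Db + Ato10 replicates 1 and 2 but 0.04 in replicate 3. Without replicate 3 the median log2 fold change became -0.45, without replicate 2 it became -0.15, and without Db replicate 1 it was -0.28. The medians of complexes I to V were -0.45, -0.71, -0.52, -0.42 and -0.44 without replicate 3 and -0.14, -0.31, -0.13, -0.15 and -0.15 without replicate 2, and that of complex II was -0.22 without replicate 1.

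No subunit passed the adjusted threshold in edgeR's quasi-likelihood test (0 of 84 at a Benjamini-Hochberg adjusted p under 0.05), and neither did any other gene (0% of 13679 in either direction). The smallest adjusted p was 0.239. At an unadjusted p under 0.05, edgeR gave 2 subunits lower and 0 higher, where 5.71% of all tested genes were lower and 11.2% higher, so the share of subunits lay below the background. DESeq2 called 1 subunit lower by adjusted p, where it called 6.86% of 14839 genes, 1.25% lower and 5.61% higher. With bias-adjusted deviances, an edgeR setting added after seeing the data, 4 subunits were lower at an unadjusted p under 0.05, where 5.86% of all tested genes were lower. By the same unadjusted threshold, 16 were lower with limma on log2(TPM + 1), where 9.25% of all genes were, and 9 with a length trend removed in edgeR, where 5.08% were. Other settings gave counts nearer to or below their background: 5 with DESeq2 (4.99%), 7 with limma on log2(FPKM + 1) (6.39%), 7 on log2(FPKM + 0.1) (6.34%), 3 with the replicate block (5.37%) and 1 where every library had to hold 10 counts (5.48%). In 10 subunits every treated library was below every Db library on the TMM-scaled CPM, and in 0 above, beside 11.3% and 12% of all tested genes, so the share of lower subunits was close to the background. These 10 were Ndufa1, Ndufa9, Ndufb10, Ndufc2, Ndufv2, Uqcrb, Uqcrh, Cox6a1, Cox7a1 and Cox7b.

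The counts rested on single libraries. Without Db + Ato10 replicate 3, edgeR called 7 subunits lower at an adjusted p under 0.05 (8.18% of 13517 genes passed, 2.23% lower and 5.96% higher), and 48 lower with 2 higher at an unadjusted p under 0.05, beside 13.1% and 16.8% of all tested genes. The 7 were Ndufs1, Ndufa9, Ndufa10, Ndufab1, Sdha, Sdhb and Uqcrc2. DESeq2 without that library called 37 subunits lower and 0 higher, where 7.42% of its genes were lower and 12.6% higher. Without Db replicate 1, edgeR called 0 subunits by adjusted p and 1 at an unadjusted p under 0.05, where 2.52% of all tested genes were lower and 5.16% higher. On leaving out Db replicate 2 the count at that threshold was 2, where 3.65% of all tested genes were lower and 8.58% higher. It was 1 for each further library: Db replicate 3 (2.97% lower and 5.23% higher among all genes), Db + Ato10 replicate 1 (4.71% and 7.72%) and Db + Ato10 replicate 2 (3.03% and 8.39%). DESeq2 called 0 subunits by adjusted p on leaving out Db replicate 1, 2 or 3 (0.276%, 0.694% and 0.331% of its genes were lower). It called 1 on leaving out Db + Ato10 replicate 1 or 2 (0.839% and 0.56%).

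Complex I, NADH dehydrogenase, has a core and a larger set of accessory subunits around it. The nuclear-encoded part of the core holds the flavin and the iron-sulphur clusters, and the rest of the core is encoded on mitochondrial DNA. The median log2 fold change was -0.36 over the 7 nuclear-encoded core genes and -0.25 over the 31 tested accessory genes (-0.57 and -0.40 without Db + Ato10 replicate 3, -0.24 and -0.11 without replicate 2). Ndufs1 (NCBI Gene 227197), the largest iron-sulphur subunit, had the lowest log2 fold change of the complex. Its level was 244, 185 and 233 TPM in the Db libraries and 80.5, 111 and 184 TPM in the Db + Ato10 libraries. The treated library at 184 TPM lay just below the lowest Db library, and on the CPM scale the groups overlapped (log2 fold change -0.74 ± 0.32 (SE), edgeR adjusted p = 0.301). The log2 fold change of Ndufs1 was -1.13 without Db + Ato10 replicate 3 (edgeR adjusted p = 0.0378). It was -0.52 without replicate 1 and -0.63 without replicate 2 of that group (edgeR adjusted p = 0.479 and 0.523).

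Further core genes lay closer to 0. The flavin-binding subunit Ndufv1 had a log2 fold change of -0.37, Ndufs8 of -0.36, Ndufv2 of -0.35, Ndufs3 of -0.30 and Ndufs7 of -0.28, and their edgeR adjusted p-values ran from 0.354 to 0.444. With a library left out, Ndufv1 ran from -0.57 to -0.22, Ndufs8 from -0.58 to -0.18 and Ndufv2 from -0.53 to -0.245. Ndufs3 ran from -0.505 to -0.16 and Ndufs7 from -0.44 to -0.16. Ndufv2 was 315, 326 and 322 TPM in the Db libraries and 202, 216 and 291 TPM in the Db + Ato10 libraries, so the groups did not overlap.

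Among the accessory subunits, Ndufb4c had the smallest p (log2 fold change -0.54 ± 0.23 (SE), edgeR adjusted p = 0.295). Ndufb4, Ndufb4b and Ndufb4c share sequence and their counts were not whole numbers, so the split of reads between them is uncertain. Ndufc2, a subunit of the membrane arm, was 481, 453 and 484 TPM in the Db libraries and 301, 346 and 404 TPM in the Db + Ato10 libraries. All 3 treated libraries were below the Db range, at a log2 fold change of -0.34 ± 0.14 (SE; edgeR adjusted p = 0.301). Ndufb10 (log2 fold change -0.43), Ndufa9 (-0.47) and Ndufa1 (-0.27) also did not overlap between the groups. Ndufa9 was 357, 352 and 360 TPM against 186, 213 and 326 TPM.

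The 3 complex I genes above 0 were Ndufa4l2, Ndufa2 and Ndufa7, the latter pair named after their values were seen. Ndufa2 (log2 fold change 0.039) and Ndufa7 (0.022) were within their errors of 0.12 and 0.16 (SE), and both were below 0 on log2(TPM + 1), after removal of a length trend and without Db replicate 1. Ndufa7 was also below 0 without Db + Ato10 replicate 3. Ndufa4l2, a hypoxia-induced relative of Ndufa4, was a low gene, at 6.95, 10.8 and 8.22 TPM in the Db libraries. It was 29.0, 11.1 and 9.54 TPM in the Db + Ato10 libraries, so the higher mean came from replicate 1. The log2 fold change of 1.06 ± 0.51 (SE; edgeR adjusted p = 0.334) became 0.32 without that library.

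Complex II couples the oxidation of succinate in the citric acid cycle to the reduction of ubiquinone, and all 4 of its subunits were tested. The flavoprotein Sdha was 605, 519 and 589 TPM in the Db libraries and 197, 292 and 512 TPM in the Db + Ato10 libraries. Replicates 1 and 2 were far below the Db range and replicate 3 came close to the lowest Db library, and the log2 fold change was -0.69 ± 0.36 (SE; edgeR adjusted p = 0.355). The iron-sulphur subunit Sdhb was 913, 839 and 891 TPM against 408, 509 and 859 TPM, at -0.49 ± 0.29 (SE). Without Db + Ato10 replicate 3 the log2 fold changes were -1.15 for Sdha and -0.85 for Sdhb (edgeR adjusted p = 0.0422 and 0.0432). Without Db + Ato10 replicate 1 they were -0.44 and -0.30 (edgeR adjusted p = 0.567 and 0.663). The membrane anchors Sdhc and Sdhd were both at -0.32, with SE of 0.24 and 0.22. Without Db + Ato10 replicate 1 they were at -0.15 and -0.14, and without replicate 3 at -0.57 and -0.53. In the treated group every subunit of the complex was lowest in replicate 1 on the TPM scale.

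Complex III passes electrons from ubiquinol to cytochrome c, and all 9 tested genes had log2 fold changes below 0, from -0.60 for Uqcrc2 to -0.11 for Uqcr10. Uqcrc2, a core protein, was 616, 504 and 590 TPM in the Db libraries and 245, 302 and 521 TPM in the Db + Ato10 libraries, so the groups overlapped (log2 fold change -0.60 ± 0.31 (SE), edgeR adjusted p = 0.354). It was -0.98 without Db + Ato10 replicate 3 (edgeR adjusted p = 0.0417). Without Db + Ato10 replicates 1 and 2 in turn it was -0.40 and -0.45 (edgeR adjusted p = 0.582 and 0.591). The counts of Uqcrc2 were not whole numbers, and its level is uncertain to that degree. The Rieske iron-sulphur protein Uqcrfs1 was at -0.48 ± 0.25 (SE), the other core protein Uqcrc1 at -0.39 ± 0.25 and cytochrome c1, Cyc1, at -0.29 ± 0.23. Uqcrb was 1769, 1765 and 1732 TPM in the Db libraries, and 1135, 1089 and 1621 TPM in the treated libraries, without overlap.

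Complex IV, cytochrome c oxidase, holds many of the most abundant subunit genes and most of the tissue isoforms. Cox8a was 3438, 3630 and 3562 TPM in the Db libraries and 2768, 2557 and 3568 TPM in the Db + Ato10 libraries, and its log2 fold change was -0.16 ± 0.22 (SE). Without Db + Ato10 replicate 2 that value was -0.012, and without replicate 3 it was -0.30. Cox4i1, Cox5a, Cox5b and Cox6c, which are expressed in most tissues, had log2 fold changes of -0.25, -0.25, -0.28 and -0.27, with SE from 0.20 to 0.25. With a library left out these ran from -0.35 to -0.15, -0.43 to -0.099, -0.41 to -0.13 and -0.50 to -0.14. Ndufa4 was at -0.30 ± 0.21 and Cox7b at -0.43 ± 0.20 (SE). Cox7b was 850, 840 and 785 TPM against 501, 502 and 716 TPM, and the groups did not overlap.

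Cox7a1 (NCBI Gene 12865), the isoform of subunit VIIa best known from heart and skeletal muscle, stood out by its size and by being low in each treated library. It was 143, 143 and 151 TPM in the Db libraries and 74.8, 44.5 and 74.0 TPM in the Db + Ato10 libraries. Replicate 3, which was at the Db level for most subunits, was as low as replicate 1 here. The log2 fold change was -1.05 ± 0.27 (SE; edgeR adjusted p = 0.239), and Cox7a1 was the 1 subunit that DESeq2 called (adjusted p = 0.0187). That call was lost on leaving out Db replicate 1, 2 or 3 (DESeq2 adjusted p = 0.146, 0.102 and 0.172) and was kept on leaving out any treated library (0.0113, 0.00904 and 0.0127). Leaving out any library kept its log2 fold change between -1.23 and -0.80, with edgeR adjusted p from 0.0778 to 0.588. The liver-type isoform Cox7a2, the more abundant, was 819, 931 and 865 TPM against 608, 588 and 862 TPM, at -0.25 ± 0.20 (SE). Cox7a2l, whose protein joins complexes III and IV, was 285, 305 and 300 TPM against 299, 270 and 258 TPM, at -0.012 ± 0.14, and its sign changed with the filter and with the library left out. Genes of striated muscle were near 0 in each library, with a summed level of 0.68 to 1.77 TPM over 10 listed genes and Mb, the most abundant, at 0.87 TPM or less. The cells that Cox7a1 RNA came from were not tested.

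The remaining isoform pairs were led by the widely expressed member. Cox4i2, an oxygen-responsive isoform, was 1.64, 2.79 and 1.66 TPM in the Db libraries and 4.72, 3.54 and 1.74 TPM in the treated libraries, on 7 to 35 counts. Its log2 fold change was 0.90 ± 0.56 (SE; edgeR adjusted p = 0.425). Without Db + Ato10 replicate 1, its highest library, Cox4i2 was not fitted. Cox6a1 was at -0.25 ± 0.19 and did not overlap between the groups, while the muscle isoform Cox6a2 rested on 3 to 32 counts, at -1.13 ± 0.88. Cox6a2 was 7.19, 3.16 and 8.62 TPM against 0.97, 0.67 and 6.66 TPM, and its log2 fold change was -0.73, -0.64 and -2.79 without Db + Ato10 replicate 1, 2 and 3 in turn. Cox6b1 was at -0.23 ± 0.22, and the testis isoform Cox6b2, at 26.6 to 59.7 TPM, was at 0.21 ± 0.33 (SE). Without Db replicate 1 the log2 fold change of Cox6b2 was -0.0084, and without Db replicate 2 it was 0.59. Cox8b held 2 to 20 counts, and Cox8c was not listed.

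Complex V, ATP synthase, had 17 genes, each with a log2 fold change below 0. The catalytic subunit Atp5b had the highest mean level in the complex, at 4324, 3454 and 4092 TPM in the Db libraries and 1810, 2065 and 3410 TPM in the Db + Ato10 libraries. The treated replicate 3 was close to the lowest Db library, and the log2 fold change was -0.62 ± 0.36 (SE; edgeR adjusted p = 0.400). Its partner Atp5a1 was 2215, 1713 and 1842 TPM against 884, 1087 and 1680 TPM, at -0.58 ± 0.33 (SE). The stalk subunit Atp5c1 was at -0.33 ± 0.21. The membrane ring of the enzyme is built from 1 protein encoded by 3 genes. Atp5g1, Atp5g2 and Atp5g3 had log2 fold changes of -0.21 ± 0.20, -0.059 ± 0.16 and -0.20 ± 0.22 (SE). That of Atp5g2 was 0.020 without Db + Ato10 replicate 1. Atp5g3 was at -0.058 without the same library, and Atp5g1 at -0.065 without Db + Ato10 replicate 2.

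**Figure D2:**
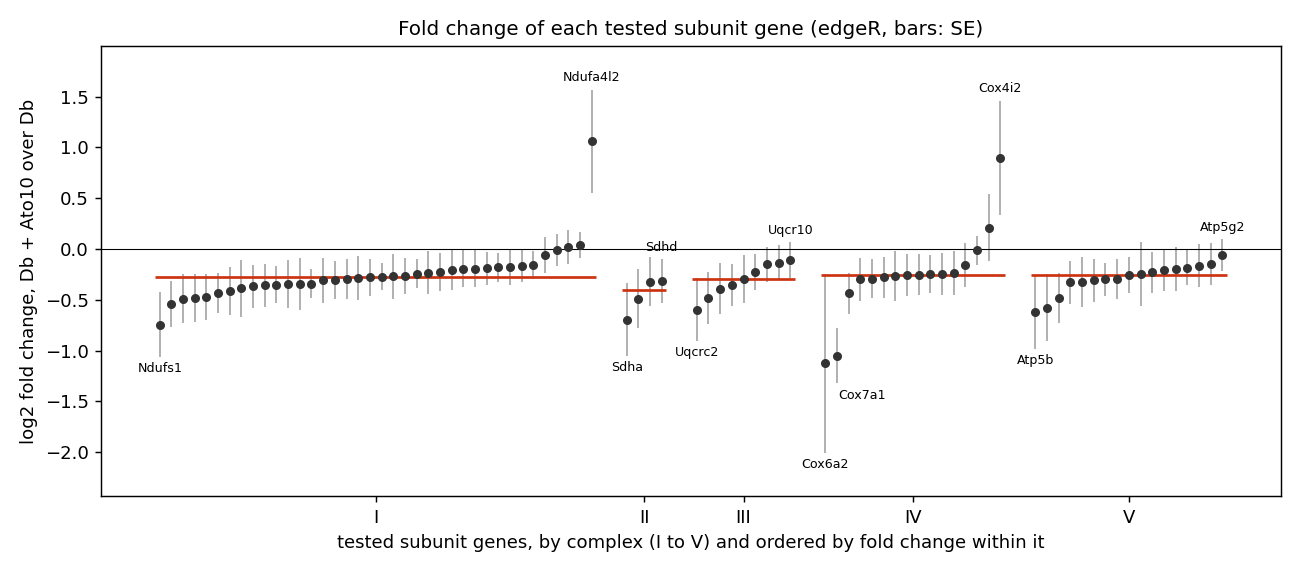
Log2 fold change of Db + Ato10 over Db for the 84 tested subunit genes, ordered within complexes I to V, with the SE of each estimate as a grey bar and the median of each complex as a red line. Of the points, 79 lie below 0, the medians run from -0.40 to -0.25, and Ndufa4l2 and Cox4i2 lie highest while Cox6a2 and Cox7a1 lie lowest.

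At the level of transcripts, 141 transcripts of the 87 genes were listed, 123 were tested, and 30 genes had more than 1. None passed the adjusted threshold in edgeR (0 of 123, and 0 of 30175 transcripts in all) or in DESeq2, which gave 0 subunit transcripts where 0.946% of its transcripts were lower and 1.79% higher. At an unadjusted p under 0.05, 1 subunit transcript was lower in edgeR, that of Cox7a1, and 0 were higher, where 2.81% of all tested transcripts were lower and 5.38% higher. For Ndufs1, the transcript that took most reads held 63.9%, 63.6% and 70.2% of the gene's counts in the Db libraries and 88.7%, 66.5% and 70.4% in the Db + Ato10 libraries. Only replicate 1 lay outside the Db range by a wide margin, and no test of the share was made.

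Transcript length and abundance were compared because most subunit mRNAs are short and abundant. The length implied by counts and FPKM had a median of 519 bases for the subunits and 2619 bases for all tested genes. Among genes under 1000 bases the median log2 fold change was -0.25 for 63 subunits and 0.095 for all 1220 genes. From 1000 to 2000 bases it was -0.37 for 17 subunits and 0.048 for all 3298, and from 2000 to 4000 bases -0.64 for 4 subunits and -0.013 for all 5194. In both classes under 2000 bases the median of all genes was thus above 0 while that of the subunits was below it. With a length trend removed from each library, the subunits' median was -0.37, and edgeR gave 0 by adjusted p and 9 lower at an unadjusted p under 0.05 (5.08% of all genes). From 10 to 100 TPM the median was 0.010 for 4 subunits and -0.028 for 6807 other genes, so these few subunits were not below the others. From 100 to 1000 TPM the median was -0.31 for 49 subunits and -0.061 for 1326 other genes. Among genes over 1000 TPM, the median was -0.25 for 29 subunits and 0.27 for 132 other genes. Cytosolic ribosomal proteins, also short (median 573 bases) and abundant, were above 0 in 48 of 50 genes, with a median of 0.44 (0.29 without Db + Ato10 replicate 1) and 11 higher at an unadjusted p under 0.05, where 11.2% of all tested genes were. That count was 1, 12 and 1 on leaving out each Db library in turn (replicates 1 to 3), and 6, 17 and 17 on leaving out each treated library, beside 5.16%, 8.58%, 5.23%, 7.72%, 8.39% and 16.8% of all tested genes. The part of length or abundance in the shift of the subunits was not tested.

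Other genes of the pathway were described from lists. Assembly factors, which help build the complexes, had 46 tested genes, 42 below 0 and 4 above, with a median log2 fold change of -0.25 (-0.15 and -0.41 without Db + Ato10 replicates 1 and 3). At an unadjusted p under 0.05 in edgeR, 5 were lower and 0 higher, beside 5.71% and 11.2% of all tested genes, and by adjusted p edgeR and DESeq2 both called 0. DESeq2 called 1 on leaving out Db replicate 2 (0.694% of its genes were lower) and 7 on leaving out Db + Ato10 replicate 3 (7.42%). The 5 were Lyrm7, for complex III (-0.91), Tmem70, for complex V (-0.74), Coa5, for complex IV (-0.66), Ndufaf4, for complex I (-0.61), and Cox11, which brings copper to complex IV (-0.43), all named after their values were seen. Their edgeR adjusted p-values ran from 0.239 to 0.286. The count of 5 became 0, 3 and 1 when Db replicates 1, 2 and 3 were left out in turn, and 2, 1 and 17 when the treated replicates were, beside 2.52%, 3.65%, 2.97%, 4.71%, 3.03% and 13.1% of all tested genes.

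Enzymes of the citric acid cycle and pyruvate dehydrogenase were below 0 in 18 of 18 genes, with a median of -0.51 (-0.30 without Db + Ato10 replicate 1). Mitochondrial isocitrate dehydrogenase Idh2 was 670, 653 and 602 TPM in the Db libraries and 294, 304 and 512 TPM in the Db + Ato10 libraries. The groups did not overlap, at a log2 fold change of -0.71 ± 0.26 (SE; edgeR adjusted p = 0.267). Idh3a (-0.53) and Pdhb (-0.49) were the remaining members at an unadjusted p under 0.05 in edgeR, where 5.71% of all tested genes were lower, and 0 passed the adjusted threshold in edgeR or DESeq2. These 3 genes were named after their values were seen. Without Db + Ato10 replicate 3, 5 of the 18 passed it in edgeR and 13 in DESeq2, each of them lower, beside 2.23% and 7.42% of all tested genes. The count of 3 at an unadjusted p under 0.05 became 0, 1 and 0 when Db replicates 1, 2 and 3 were left out in turn, and 1, 0 and 13 when the treated replicates were. The shares of all tested genes in these fits were 2.52%, 3.65%, 2.97%, 4.71%, 3.03% and 13.1%.

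Regulators of mitochondrial biogenesis were below 0 in 14 of 21 genes and above in 7, with a median of -0.37 (-0.20 if Db replicate 1 was left out, -0.22 if Db + Ato10 replicate 1 was). The coactivator Ppargc1a (PGC-1 alpha) was 40.0, 31.6 and 27.0 TPM in the Db libraries and 9.19, 15.1 and 20.6 TPM in the Db + Ato10 libraries. Every treated library was below every Db library, at a log2 fold change of -1.06 ± 0.30 (SE; edgeR adjusted p = 0.239), and DESeq2 called it (adjusted p = 0.0346). On the TMM-scaled CPM, every treated library was below every Db library in 7 of the 21 genes, beside 11.3% of all tested genes. Among these were the estrogen-related receptors, nuclear receptors that act with PGC-1 alpha on respiratory chain genes. Esrra was 107, 97.4 and 116 TPM against 64.8, 68.2 and 84.9 TPM (-0.49), Esrrg 26.6, 22.3 and 24.7 TPM against 9.28, 12.7 and 17.6 TPM (-0.82), and Esrrb 49.2, 47.8 and 45.3 TPM against 23.3, 10.0 and 28.0 TPM (-1.17). DESeq2 called Esrrg of these (adjusted p = 0.0494). On leaving out Db replicates 1, 2 and 3 and Db + Ato10 replicates 1 and 2 in turn, the DESeq2 adjusted p was 0.297, 0.134, 0.107, 0.0679 and 0.184 for Ppargc1a and 0.312, 0.121, 0.258, 0.132 and 0.236 for Esrrg, so both calls were lost. With Db + Ato10 replicate 3 left out they were 8.42e-05 and 1.05e-05. Ppargc1b (-0.66) and Gabpa (-0.42) completed the 6 at an unadjusted p under 0.05 in edgeR, where 5.71% of all tested genes were lower. The count was 3 on leaving out Db replicate 1 (2.52%), 9 on leaving out Db + Ato10 replicate 3 (13.1%) and 4 on leaving out each of the other libraries (2.97% to 4.71%). Nrf1 was at 0.20 ± 0.18 (SE) and Tfam, which packages mitochondrial DNA, at -0.42 ± 0.22. By adjusted p, edgeR called 0 of the 21, and without Db + Ato10 replicate 3 it called 3, Ppargc1a, Esrrg and Tfam, beside 2.23% of all tested genes lower. These regulators were named after their values were seen.

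Carriers around the chain were below 0 in 12 of 13 tested genes, with a median of -0.30 (-0.16 without Db + Ato10 replicate 1), and cytochrome c, Cycs, was at -0.28 ± 0.21 (SE). Ucp2 was the exception, at 181, 294 and 173 TPM in the Db libraries and 1050, 577 and 242 TPM in the Db + Ato10 libraries. Its groups overlapped, its log2 fold change was 1.63 ± 0.55 (SE; edgeR adjusted p = 0.243), and DESeq2 called it (adjusted p = 0.0406), a call lost on leaving out any library but Db + Ato10 replicate 3 (DESeq2 adjusted p from 0.0599 to 0.285). The log2 fold change of Ucp2 was 0.97 without Db + Ato10 replicate 1. Mitochondrial ribosomal proteins, which translate the subunits of mitochondrial DNA, lay near 0, with 40 of 52 below, a median of -0.083, and 1 lower and 2 higher at an unadjusted p under 0.05 (5.71% and 11.2% of all tested genes). Their median was -0.17 with 10 lower (13.1%) if Db + Ato10 replicate 3 was left out, -0.046 if Db + Ato10 replicate 2 was and -0.047 if Db replicate 3 was.

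Markers of the tubule had log2 fold changes below 0 as most subunits did. Proximal tubule genes were below 0 in 12 of 12, with a median log2 fold change of -0.78 (-0.40 and -1.55 without Db + Ato10 replicates 1 and 3) and a median deviation of -2.58, -0.90 and 0.06 in Db + Ato10 replicates 1 to 3. Their summed level was 21019, 11296 and 14518 TPM in the Db libraries and 4210, 6979 and 12526 TPM in the Db + Ato10 libraries, with Kap the most abundant. Slc34a1 was 273, 1396 and 2945 TPM in the treated libraries, so replicate 3 was within the Db range and replicate 1 far below it. Genes of the thick ascending limb (8 of 8 below 0, median -1.0), the distal convoluted tubule (6 of 6, -1.12) and the collecting duct (10 of 10, -0.57) had lower summed levels in each treated library than in any Db library. At an unadjusted p under 0.05 in edgeR, 0 proximal tubule genes were lower, beside 6 of the thick ascending limb, 5 of the distal convoluted tubule and 7 of the collecting duct, where 5.71% of all tested genes were lower. By adjusted p, edgeR called 0 in these 4 lists and DESeq2 0, 5, 4 and 3 (1.25% of its genes were lower). The DESeq2 counts ran from 0 to 8, 2 to 5, 1 to 4 and 1 to 5 with a library left out, lowest without Db replicate 1 or 3 (0.276% and 0.331% of all genes lower) and highest without Db + Ato10 replicate 3, the fit with the highest background (7.42%). Without Db + Ato10 replicate 3 edgeR called 1, 4, 0 and 2 lower by adjusted p (2.23% of all tested genes), and 7, 5, 4 and 6 at the unadjusted threshold (13.1%). Leaving out Db replicate 1 gave 0, 5, 3 and 3 at the unadjusted threshold (2.52%), Db replicate 2 gave 0, 5, 2 and 5 (3.65%), Db replicate 3 gave 0, 6, 5 and 4 (2.97%), Db + Ato10 replicate 1 gave 0, 6, 6 and 6 (4.71%) and Db + Ato10 replicate 2 gave 0, 5, 4 and 4 (3.03%). The summed levels were 54.3%, 30.4% and 70.1% of the Db mean for the thick ascending limb, 50.9%, 26.3% and 47.0% for the distal convoluted tubule, and 72.5%, 49.5% and 75.0% for the collecting duct. Umod, Calb1 and Aqp2 were the most abundant of these lists. Slc12a1, the salt transporter of the thick ascending limb, was 863, 760 and 912 TPM against 290, 219 and 347 TPM (log2 fold change -1.48, edgeR adjusted p = 0.239).

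Markers of leukocytes were above 0 in 10 of 10 tested genes, with a median log2 fold change of 3.18, and DESeq2 called 9 of them higher, where 5.61% of its genes were. DESeq2 called 4, 9 and 3 on leaving out each Db library and 3, 7 and 10 on leaving out each treated library, where 1.33%, 4.02%, 1.41%, 1.73%, 3.09% and 12.6% of its genes were higher. In edgeR 0 passed the adjusted threshold and 10 were higher at an unadjusted p under 0.05, where 11.2% of all tested genes were. Without Db + Ato10 replicate 3, 9 passed the adjusted threshold (5.96% of all), and the unadjusted count was 10 (16.8%). That count was 4, 9 and 5 on leaving out each Db library (5.16%, 8.58% and 5.23%), and 9 on leaving out either of Db + Ato10 replicates 1 and 2 (7.72% and 8.39%). Their summed level was 91.5, 222 and 156 TPM in the Db libraries and 6006, 1391 and 224 TPM in the Db + Ato10 libraries, so that replicates 1 and 2, lowest in subunits, were highest in these markers. Lyz2, a lysozyme of macrophages and the most abundant of them, was 38.9, 107 and 76.8 TPM in the Db libraries and 4395, 993 and 114 TPM in the treated libraries. The B cell markers Cd79a and Ms4a1 and the T cell marker Cd3e were below the count minimum, and Ms4a1 was at 0 in Db replicates 1 and 2. Fibroblast and myofibroblast genes were above 0 in 8 of 8, with a median of 2.58 (1.01 without Db + Ato10 replicate 1) and a summed level of 71.0, 87.0 and 76.2 TPM against 680, 253 and 110 TPM. Dcn was the most abundant, and Col1a1 was 1.36, 4.10 and 1.26 TPM against 95.9, 51.4 and 6.87 TPM. Podocyte and endothelial lists held 7 genes each and the erythroid list 6, of which Slc4a1 is also in the collecting duct list. Their summed levels were 233, 154 and 148 TPM against 221, 82.5 and 144 TPM for podocytes, 349, 335 and 367 TPM against 369, 171 and 363 TPM for endothelium, and 3623, 3173 and 13232 TPM against 4065, 868 and 1927 TPM for erythroid genes, with Podxl, Plvap and Hba-a1 the most abundant. Fat genes summed to 2.58 TPM or less in each library. The part of these cell types in the level of the subunits was not tested.

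**Figure D3:**
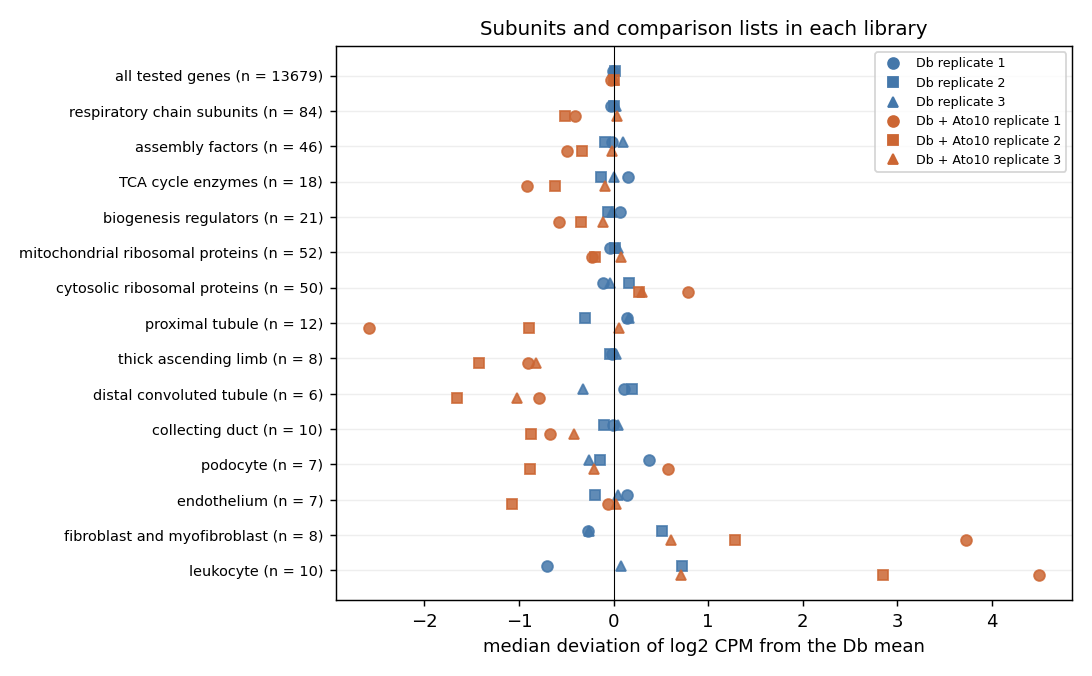
Median deviation of log2 CPM from the Db mean for the subunits and for comparison lists (n tested genes in parentheses), with each library as a symbol (Db blue, Db + Ato10 orange, replicates 1 to 3 as circle, square and triangle). The subunits lie at -0.40, -0.52 and 0.04 in the treated libraries, proximal tubule genes at -2.58, -0.90 and 0.06, and leukocyte genes at 4.50, 2.86 and 0.72.

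Promoter sequences were searched because most of the genes lay in the same direction. The RefSeq promoter table (build GRCm38.p6, 250 bases before to 50 bases after each start) held 70 of the 87 genes. Entries for Atp5a1, Atp5mpl, Cox4i1, Cox4i2, Cox6a2, Cox6c, Cyc1, Ndufa2, Ndufa4l2, Ndufb4c, Ndufb9, Ndufs1, Sdhc, Uqcrb, Uqcrc2 and Uqcrq were among those missing. Exact matches on either strand were counted. The motif of NRF1, with 10 bases, was found in 17 of the 70 genes (24.3%) in 5.19% of all 27025 genes and in 4.60% of all 32851 promoters. The YY1 motif AAGATGGCG was found in 7 genes (10.0%), 1.64% of all genes and 1.40% of all promoters. The motif CCGGAAGT of ETS factors such as GABP was found in 5 genes (7.14%), 4.31% of all genes and 3.89% of all promoters. The motif TCAAGGTCA of estrogen-related receptors was found in 2 genes, Atp5g3 and Sdhd Atp5g3 and Sdhd (2.86%), 0.466% of all genes and 0.423% of all promoters. A match describes the letters only, and binding was not measured.

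Short stretches before the start are shown for 4 genes, with matches in capitals and bases of annotated exons left out. Cox6a1 lies on chr5:115348982-115349129 (minus strand) and holds 2 matches of the NRF1 motif. Atp5g3 lies on chr2:73911327-73911476 (minus strand) and holds 1 match of the estrogen-related receptor motif. Uqcrh lies on chr4:116075072-116075221 (minus strand) and holds 1 match of the ETS motif. Cox7a1, the subunit with the smallest p, lies on chr7:30183994-30184143 (plus strand) and holds 0 matches of the 4 motifs in the whole promoter. The coordinates are of GRCm38.p6 and 0 genes of the GENCODE annotation of that build overlap the printed stretches.
Cox6a1: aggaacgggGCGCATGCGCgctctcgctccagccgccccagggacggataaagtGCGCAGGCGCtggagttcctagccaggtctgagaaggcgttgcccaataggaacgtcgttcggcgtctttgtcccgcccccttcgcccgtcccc
Atp5g3: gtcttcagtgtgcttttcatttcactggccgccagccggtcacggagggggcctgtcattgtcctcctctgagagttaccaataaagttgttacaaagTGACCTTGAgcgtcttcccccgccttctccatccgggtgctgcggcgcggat
Uqcrh: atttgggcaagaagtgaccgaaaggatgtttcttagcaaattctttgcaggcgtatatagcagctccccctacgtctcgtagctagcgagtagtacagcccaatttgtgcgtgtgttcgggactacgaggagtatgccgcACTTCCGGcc
Cox7a1: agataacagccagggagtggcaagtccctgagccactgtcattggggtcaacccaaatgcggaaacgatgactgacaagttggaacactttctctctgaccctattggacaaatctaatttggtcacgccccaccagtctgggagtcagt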

How the data were processed

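Kidney RNA of 3 Db and 3 Db + Ato10 libraries was sequenced on BGISEQ-500 after oligo-dT selection or rRNA depletion (which of these is not given in the sources used here). The submitters' processing notes name HISAT, Bowtie2 2.2.5 and genome build mm9, without their roles. Expected counts of genes and transcripts were deposited by the authors without normalization, and 91.3% of the gene values were whole. FPKM and TPM, deposited beside them, are scaled to length and library. The counts were rounded to whole numbers. edgeR 4.0.16 in R 4.3.3 was run on all genes with TMM and the quasi-likelihood F test, on genes that held 10 or more counts in 3 or more libraries, with Benjamini-Hochberg adjustment over all 13679. The SE of a log2 fold change was derived from its F statistic. log2 CPM used a prior count of 2. Library totals of 11381678 to 14667909 limit genes of few counts. Alternatives were DESeq2 1.42.0, limma 3.58.1 (voom, and log2 TPM or FPKM), other filters and scaling, a length trend, the replicate block and each library left out. Bias-adjusted deviances and DESeq2 with each library left out were added after seeing the data. The edgeR step was also run on simulated data, and no result of that run is given here. Named genes were core subunits, isoform pairs, the highest and lowest log2 fold change of each complex and the 10 smallest p-values, and others were named after their values were seen. Some of these genes are not reported here. The members and lists were chosen with earlier results of these data known. Python 3.11.15 and matplotlib were used for summaries and figures. Promoters and exons came from tables of GRCm38.p6, a build other than the authors'. No other coordinates are given.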

Additional observations from a re-analysis of the deposited data

How the results depend on the processing

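The median log2 fold change of the subunits was below 0 under each alternative run, from -0.45 to -0.15 with a library left out. The 0 subunits past the adjusted threshold became 1 with DESeq2, 0 to 7 with a library left out, and, in DESeq2 with libraries left out, chosen after seeing the data, 0 without Db replicate 1, 2 or 3 and 1, 1 and 37 without Db + Ato10 replicates 1, 2 and 3. The 2 lower at an unadjusted p under 0.05 became 5 with DESeq2 (4.99% of all genes), 1 with at least 10 counts in every library (5.48%), 16 with limma on log2(TPM + 1) (9.25%), 7 on log2(FPKM + 1) (6.39%), 7 on log2(FPKM + 0.1) (6.34%), 9 with the length trend removed (5.08%), 4 with bias-adjusted deviances (5.86%) and 1 to 48 with a library left out, and the 0 higher became 0 to 2. The summed level was 67.7% to 82.1% of Db with a library left out, and 82.6% on FPKM. The cause of these shifts was not tested.

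Of 72 named and tested genes, 67 kept their sign in each alternative in which they were fitted. Cox4i2 was not fitted on leaving out Db replicate 2 or Db + Ato10 replicate 1 or 2. With a library left out, the ranges were -0.0084 to 0.59 for Cox6b2, -0.11 to 0.061 for Cox7a2l, -0.0074 to 0.097 for Ndufa2, -0.095 to 0.11 for Ndufa7 and -0.15 to 0.020 for Atp5g2. The sign changed for Atp5g2 (0.020 without Db + Ato10 replicate 1), Cox6b2 (-0.0084 without Db replicate 1), Cox7a2l (0.012 with at least 10 counts in every library, 0.011 without Db replicate 2, 0.061 and 0.041 without Db + Ato10 replicates 2 and 3), Ndufa2 (-0.056 on log2 TPM, -0.059 with the length trend removed, -0.0074 without Db replicate 1) and Ndufa7 (-0.079 on log2 TPM, -0.074 with the length trend removed, -0.052 without Db replicate 1, -0.095 without Db + Ato10 replicate 3). Same-numbered libraries did not deviate together (correlations -0.15, 0.061 and 0.21 across genes), so the numbers were not taken as pairs. With the replicate block, edgeR gave 0 subunits by adjusted p, 3 lower and 0 higher at an unadjusted p under 0.05, a median of -0.30 and 0 subunit transcripts. Genes on few counts, such as Cox4i2 and Cox6a2, were limited by depth.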
